A study of Mus musculus with 24 samples.

Results

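The mesothelial and ovarian surface identity genes described here were chosen by symbol from a list of 10: the transcription factors Wt1 and Gata6, the membrane and surface proteins Msln, Upk3b, Lrrn4 and Muc16, and the keratins Krt7, Krt8, Krt18 and Krt19. Of the 25229 genes in the count table, 9 were these, and Muc16 was not analysed here. RNA was sequenced from ID8 Trp53-/- cells, a mouse ovarian cancer line of C57BL/6 origin, labelled ID8 P53 KO, in which p53 is knocked out in every group, the controls included. Cells had received DMSO, 2.5 µM AU-15330, 750 nM cisplatin or both drugs (the combination) for 6 days, with 6 libraries in each of the 4 groups. The concentrations are those of the labels. The study's methods give a higher cisplatin concentration for these cells in general. AU-15330 is a PROTAC, a molecule that brings a target protein to a ubiquitin ligase for degradation, here SMARCA4 and its paralogue SMARCA2, so transcript counts do not check that it acted. SMARCA4 and SMARCA2 are the ATPases of the SWI/SNF complexes, which slide and evict nucleosomes. Cisplatin crosslinks DNA and was used in the study to induce senescence.

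The mesothelium and the ovarian surface epithelium are single layers of flat to cuboidal cells that arise from the coelomic epithelium and line the body cavity and the ovary. They carry epithelial keratins beside mesenchymal features such as vimentin, and they express Wt1, a zinc finger factor of the coelomic epithelium, and Gata6, a zinc finger factor of mesoderm and endoderm derivatives. Msln encodes mesothelin, a GPI-anchored surface protein that binds the mucin encoded by Muc16. Upk3b encodes uroplakin 3B, a membrane protein used as a mesothelial marker, and Lrrn4 encodes a leucine-rich repeat membrane protein. Keratin filaments are built from pairs of a type I and a type II chain. Krt18 and Krt19 encode type I chains, and Krt7 and Krt8 encode type II chains.

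The library totals were between 17592588 and 25260009 counts after the lanes of each library had been summed. Levels are given as counts per 1000000 (CPM) with library sizes scaled by TMM, and 3 counts correspond to between 0.120 and 0.186 CPM, depending on the library. Nothing in the labels says that replicates were separate cultures, so p-values measure the spread between these libraries, which may be technical. Changes were tested with edgeR's quasi-likelihood test on 12941 genes that passed a filter on low counts, with Benjamini-Hochberg adjustment over these genes and a threshold of 0.05. All 9 members in the table passed the filter. Krt7, with 9 to 45 counts in the DMSO libraries, was highest with cisplatin, so its passing rested on the groups in which it was high. In these bulk cultures, fewer cells of a type and less RNA per cell cannot be told apart.

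The 4 promoters below are shown because Upk3b and Lrrn4 rose with cisplatin and fell with AU-15330, and because Krt8 and Krt18, whose products pair in filaments, are neighbouring genes whose transcripts changed by different amounts. They are the bases before the annotated gene start, 5′ to 3′ on the gene's strand, from RefSeq (GRCm38.p6), and capitals mark the matches described after them. The Upk3b window was chr5:136038246-136038495 on the + strand and that of Lrrn4 was chr2:132880892-132881112 on the - strand. The Krt8 window was chr15:102004483-102004592 on the - strand and that of Krt18 was chr15:102027966-102028179 on the + strand.
Upk3b: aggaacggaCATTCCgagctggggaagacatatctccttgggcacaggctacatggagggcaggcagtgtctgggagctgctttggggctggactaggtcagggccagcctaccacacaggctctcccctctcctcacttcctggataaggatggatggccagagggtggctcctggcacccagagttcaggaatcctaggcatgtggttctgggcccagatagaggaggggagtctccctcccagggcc
Lrrn4: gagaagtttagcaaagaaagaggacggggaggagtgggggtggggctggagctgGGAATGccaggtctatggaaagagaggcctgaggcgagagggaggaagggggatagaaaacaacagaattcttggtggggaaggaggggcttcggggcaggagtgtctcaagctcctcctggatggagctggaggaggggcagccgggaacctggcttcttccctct
Krt8: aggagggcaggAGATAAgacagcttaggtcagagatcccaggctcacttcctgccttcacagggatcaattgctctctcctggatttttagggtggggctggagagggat
Krt18: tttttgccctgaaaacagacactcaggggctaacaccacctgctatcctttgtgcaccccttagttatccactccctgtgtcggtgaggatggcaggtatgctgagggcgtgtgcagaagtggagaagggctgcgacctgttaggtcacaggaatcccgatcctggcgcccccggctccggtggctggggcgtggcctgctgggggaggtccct
Both strands were searched for TATAAA, which is the core of the TATA box, for GGGCGG, which is the GC box, for TGANTCA, which is the AP-1 site, for AGATAA, which is the GATA site, and for GGAATG, which is the TEAD site and reads CATTCC on the other strand. The Upk3b window held 1 TEAD match at position -241 and the Lrrn4 window held 1 at position -196, counted from the RefSeq start. Windows of these lengths held a TEAD match in 12.6% and 11.5% of all promoters in the RefSeq table. The Krt8 window held 1 GATA match at position -239, as did 4.93% of all promoters in a window of this length. None of these letters was in the Krt18 window. The Lrrn4, Krt8 and Krt18 windows end before the RefSeq start, so sites nearer to that start were outside the search. A match is a string of letters and was not tested as a bound site.

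In GENCODE coordinates of GRCm38, Wt1 lies at chr2:105126529-105173616, Msln at chr17:25748613-25754378, Upk3b at chr5:136038496-136046487 and Lrrn4 at chr2:132868305-132880891. Krt7 lies at chr15:101411043-101430313, Krt8 at chr15:101996698-102004482, Krt18 at chr15:102028180-102032027 and Krt19 at chr11:100140810-100148665. Krt8 and Krt18 point away from each other, with 23697 bases and 0 annotated genes wholly between them. Krt7 overlaps the antisense gene Gm671, Krt8 overlaps the lincRNA Gm36026 and Gata6 overlaps the transcript 1010001N08Rik on the other strand. Whether strand was used in counting is not given in the sources used here, so reads of such overlapping partners cannot be told apart from those of Krt7, Krt8 and Gata6.

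Under DMSO the cells carried abundant RNA of most of these genes. Per kb of exon, Krt19 was highest with a median level of 869 CPM per kb, followed by Krt18 with 428. Msln with 175, Krt8 with 162 and Wt1 with 135 CPM per kb came next, and the libraries of Krt8 overlapped those of both Msln and Wt1 on this scale. Gata6 followed with 34.1, Upk3b with 16.4, Lrrn4 with 0.933 and Krt7 with 0.181 CPM per kb. As a check of the set's name, Wt1, Msln, Gata6 and 3 of the 4 keratins were thus abundant, Upk3b was intermediate, and Lrrn4 and Krt7 were low. Among 14 further mesothelial and coelomic genes, 7 passed the filter, and Tcf21 was at 0 counts in every library. Markers of other cell types were mixed. Foxl2 of granulosa cells, Sox17 of Müllerian-type epithelium and Emcn of endothelium were at 0 counts in every library, while Star, on the list with Foxl2, stood at 552 CPM in DMSO, Ovgp1, on the list with Sox17, at 5.24 CPM, Pecam1, on the list with Emcn, at 3.60 CPM, and Cd68 of the immune list at 11.8 CPM. The leukocyte gene Ptprc had 0 to 5 counts in each library. Epcam, an adhesion gene of most epithelia, had 0 to 2 counts per library in DMSO and cisplatin and at most 1 in the other groups.

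**Figure D1:**
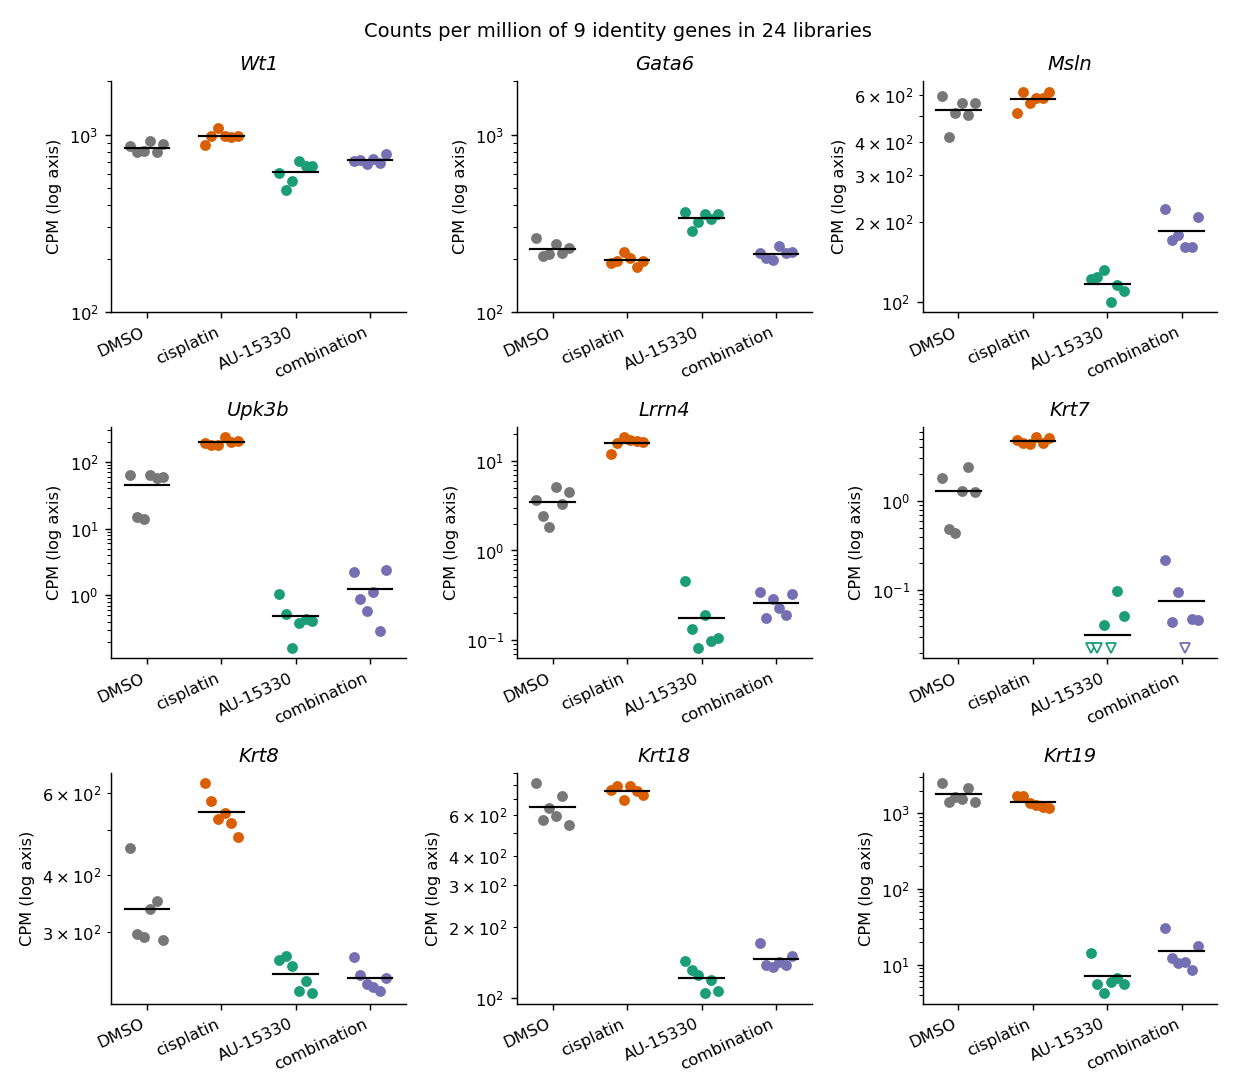
Level of each of the 9 genes in the 24 libraries, in CPM on a log axis, by treatment. Each point is 1 library, the line is the mean of 6 libraries, and open triangles at the lower edge mark libraries with 0 counts. For all genes but Gata6 the AU-15330 libraries lie below all DMSO libraries, and for Gata6 they lie above them.

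AU-15330 lowered 8 of the 9 genes against DMSO and raised 1, Gata6. Among all tested genes, 37.2% were lower and 36.2% higher in this comparison (4816 and 4681 genes, or 3973 and 5618 with library totals unscaled), and the median log2 change was -2.41 over the 9 genes and -0.00 over all tested genes. For none of the 9 did the 6 AU-15330 libraries overlap the 6 DMSO libraries. The share of all tested genes without such overlap was not counted, so this is not a trait particular to the set. The sizes ran from a modest loss of Wt1 and Krt8 to a near disappearance of Krt19, Upk3b, Lrrn4 and Krt7.

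Wt1, required for development of the coelomic epithelium and gonad, had 794, 836 and 916 CPM as the lowest, median and highest DMSO values, and 490.2, 635 and 711 CPM with AU-15330. Its mean was 845 ± 51.4 CPM (SD, n = 6) in DMSO and 614 ± 82.9 CPM in AU-15330. The log2 change of Wt1 was -0.46 (SE 0.0772, adjusted p = 7.38e-06 by edgeR), a level 1.38-fold lower. Gata6 went the other way. Its DMSO libraries spanned 208 to 261 CPM with a median of 222, and its AU-15330 libraries spanned 288 to 366 CPM with a median of 346. Gata6 rose by 0.57 on the log2 scale (SE 0.0691, adjusted p = 4.78e-08 by edgeR), and all 6 AU-15330 libraries were above every DMSO library.

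The surface genes fell further than Wt1. Msln had 418, 536 and 592 CPM as the lowest, median and highest DMSO values and 99.9, 119 and 131 CPM with AU-15330. The log2 change of Msln was -2.16 (SE 0.0940, adjusted p = 6.53e-17 by edgeR), a level 4.48-fold lower. Upk3b fell from a DMSO median of 58.1 CPM to 0.427 CPM. In DMSO its libraries formed a high and a low set, with 63.5, 63.1, 56.5 and 59.6 CPM in replicates 1, 4, 5 and 6 but 15.1 and 13.9 CPM in replicates 2 and 3. The AU-15330 libraries of Upk3b had between 0.164 and 1.04 CPM, all below the lowest DMSO library. Its log2 change was -6.50 (SE 0.468, adjusted p = 2.25e-12 by edgeR). Within replicates 1 to 3 the log2 change of Upk3b was -5.74 and within replicates 4 to 6 it was -7.17. These subsets are not the high and the low set, since replicate 1 of the high set is in the first. Lrrn4, at 1.83 to 5.06 CPM in DMSO, had 0.0822 to 0.450 CPM with AU-15330. Over the summed counts, Lrrn4 was 19.8-fold higher in DMSO (95% counting interval 13 to 31.5), with a log2 change of -4.25 (SE 0.307, adjusted p = 2.39e-12 by edgeR). Within replicates 1 to 3 it was -3.55 and within replicates 4 to 6 it was -4.99. The 0.450 CPM of Lrrn4 came from AU-15330 replicate 1, and the other AU-15330 libraries had at most 0.191 CPM.

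Krt19, a type I keratin of simple epithelia and the most abundant of these transcripts, showed the largest change of the 9. Its DMSO libraries had 1398 CPM as the lowest, 1611 as the median and 2518 as the highest value, and its AU-15330 libraries had 4.15, 5.72 and 14.4 CPM. The log2 change of Krt19 was -7.99 (SE 0.347, adjusted p = 6.44e-17 by edgeR), a level 254-fold lower. AU-15330 replicate 1 held the 14.4 CPM and the other libraries were between 4.15 and 6.60 CPM. Krt18, the usual partner of Krt8, fell from 646 ± 104 to 122 ± 15 CPM (SD, n = 6), with a log2 change of -2.41 (SE 0.0969, adjusted p = 1.34e-17 by edgeR). Krt8 fell far less, from 337 ± 63.7 to 243 ± 19.6 CPM, with a log2 change of -0.47 (SE 0.0927, adjusted p = 6.81e-05 by edgeR). The Krt8 libraries spanned 289 to 456 CPM in DMSO and 221 to 266 CPM with AU-15330. Krt7 had 149 counts in all DMSO libraries together and 4 counts in all AU-15330 libraries, with 0 counts in 3 of those 6. Over summed counts Krt7 was 40.4-fold higher in DMSO (95% counting interval 15.5 to 150.2), and its fitted change had an adjusted p of 1.19e-08 by edgeR. Counting intervals cover counting error only.

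**Figure D2:**
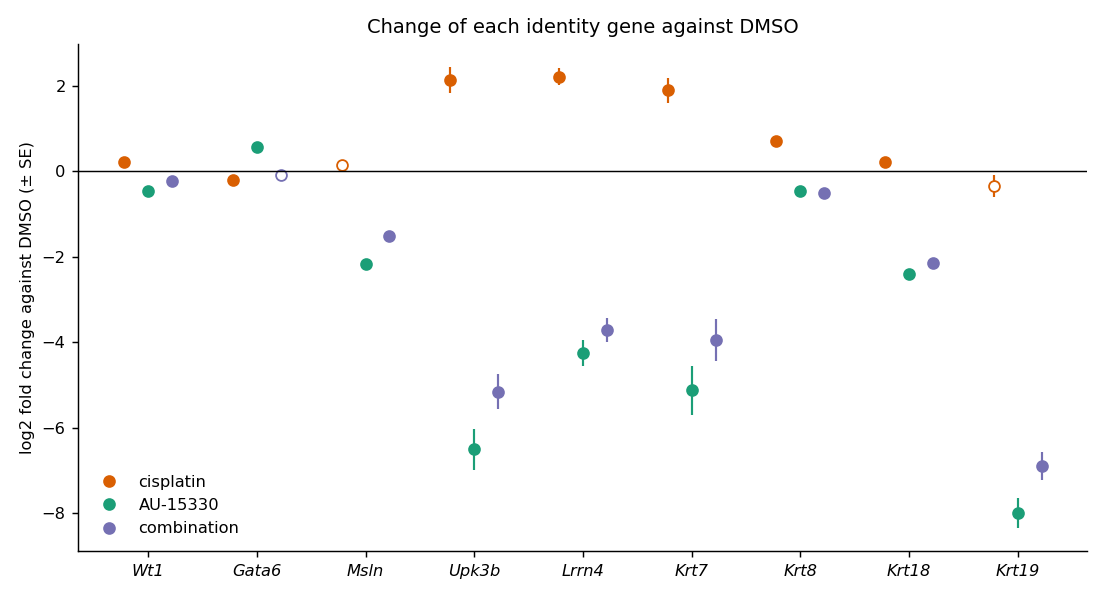
Fitted log2 fold change of each gene against DMSO for cisplatin, AU-15330 and the combination, with bars of 1 SE on either side. Filled points passed the edgeR threshold of 0.05 and open points did not, and the AU-15330 and combination values are below 0 for every gene but Gata6 with AU-15330.

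Cisplatin alone left the set largely in place and raised its low members. Against DMSO, 6 of the 9 genes were higher and 1 was lower, with backgrounds of 26% of all tested genes higher and 25.7% lower. These were 3360 and 3329 genes, and with library totals unscaled they were 3977 and 2529. The median log2 change was 0.22 over the 9 genes and -0.00 over all tested genes. The 3 largest rises were those of Lrrn4, Upk3b and Krt7, whose cisplatin libraries did not overlap the DMSO libraries. Krt7 is counted here although its passing of the filter rested on the groups in which it was high.

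Upk3b had 177, 197 and 233 CPM as the lowest, median and highest cisplatin values against a DMSO median of 58.1 CPM. It rose by 2.12 on the log2 scale (SE 0.309, adjusted p = 2.69e-06 by edgeR). Lrrn4 had 12.1, 16.6 and 18.4 CPM with cisplatin and rose by 2.21 (SE 0.196, adjusted p = 7.68e-10 by edgeR). Krt7 had 4.34 to 5.16 CPM with cisplatin against 0.434 to 2.42 CPM in DMSO and rose by 1.89 (SE 0.293, adjusted p = 6.43e-06 by edgeR). The test of this rise carries the filter limit of Krt7. In these 3 genes DMSO replicates 2 and 3 were the lowest libraries, while the cisplatin libraries lay closer together. Within replicates 1 to 3 the log2 rise was 2.57 for Upk3b, 2.55 for Lrrn4 and 2.38 for Krt7, and within replicates 4 to 6 it was 1.82, 1.94 and 1.57. Krt8 rose from 337 ± 63.7 to 547 ± 52.2 CPM (SD, n = 6), a log2 change of 0.70 (SE 0.0928, adjusted p = 6.82e-07 by edgeR) with no overlap between the groups.

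The changes of the other genes with cisplatin were smaller or did not pass the test. Wt1 had a log2 change of 0.21 (adjusted p = 0.0226 by edgeR), with 868 to 1089.9 CPM in the cisplatin libraries, which overlapped those of DMSO. This call was lost without replicate 3 or replicate 5, where the log2 change was 0.20 in both cases. Krt18 had a log2 change of 0.22 (adjusted p = 0.0462 by edgeR), and the call was lost when any of replicates 2 to 6 was left out, with log2 changes of 0.17 to 0.27. Gata6 fell by 0.22 (adjusted p = 0.0109 by edgeR), from 228 ± 20.3 to 196 ± 13 CPM, and this call was lost with library totals unscaled, where the log2 change was -0.14. Msln had 514 to 618 CPM with cisplatin and a log2 change of 0.14 (adjusted p = 0.193 by edgeR), which did not pass the test. Krt19 had 1164 to 1701 CPM with cisplatin and a log2 change of -0.35 (SE 0.251, adjusted p = 0.257 by edgeR), which did not pass over all libraries but did within replicates 4 to 6, at -0.50 (adjusted p = 0.0320 by edgeR). The calls of Wt1, Krt18 and Gata6 were lost within replicates 1 to 3.

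Most of the set was also low in the combination. Against DMSO, 8 of the 9 genes were lower and 0 were higher by edgeR, with backgrounds of 36.5% lower and 36.8% higher among all tested genes (4729 and 4757 genes, or 3867 and 5730 with library totals unscaled). Against cisplatin alone, 8 were lower and 0 higher, with backgrounds of 32.7% and 35.4% (4234 and 4579 genes, or 3877 and 5111 with library totals unscaled). Both counts of 0 were also 0 at an unadjusted p under 0.05 and by DESeq2. The gene outside these calls was Gata6 both times, with log2 changes of -0.09 against DMSO (adjusted p = 0.234 by edgeR) and 0.12 against cisplatin (adjusted p = 0.115 by edgeR). The comparisons share samples, so their counts are not independent.

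In the combination Krt19 had 8.58, 11.5 and 30.6 CPM as the lowest, median and highest values, all below its lowest cisplatin library of 1164 CPM. Its log2 change against cisplatin was -6.54 (SE 0.323, adjusted p = 1.37e-15 by edgeR). Upk3b, which cisplatin alone raised, had 0.288 to 2.42 CPM in the combination and a log2 change of -7.28 against cisplatin (SE 0.426, adjusted p = 4.36e-14 by edgeR). Lrrn4 had 0.175 to 0.346 CPM in the combination, 62.1-fold below cisplatin by summed counts (95% counting interval 44.3 to 89.9). Krt7 had 10 counts over all combination libraries and 661 over all cisplatin libraries, 61.9-fold apart (33.5 to 129.8). Combination replicate 1 held 0.216 CPM of Krt7, the most in that group, and without replicate 1 the log2 change of Krt7 went from -5.85 to -6.54 against cisplatin and from -3.96 to -4.55 against DMSO. Msln kept 184 ± 26.1 CPM (SD, n = 6) in the combination, a log2 change of -1.65 against cisplatin (adjusted p = 1.63e-14 by edgeR) and of -1.51 against DMSO (adjusted p = 7.32e-14 by edgeR). Krt18 had 145 ± 13.2 CPM and a log2 change of -2.37 against cisplatin. Krt8 had 238 ± 14.8 CPM, -1.2 against cisplatin and -0.50 against DMSO. Wt1 had 683 to 779 CPM, a change of -0.45 against cisplatin and of -0.23 against DMSO (adjusted p = 0.00871 by edgeR). The Wt1 call against DMSO was lost with library totals unscaled, at a log2 change of -0.09. It was also lost within replicates 1 to 3, at -0.26 (adjusted p = 0.0527 by edgeR).

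AU-15330 and cisplatin alone were also set against each other. With AU-15330, 8 of the 9 genes were lower than with cisplatin and 1, Gata6, was higher, with backgrounds of 37.3% lower and 35.8% higher. The 2 drugs left no overlap between their libraries for any of the 9, and the share of all tested genes without overlap was not counted. Upk3b differed most, with a log2 difference of -8.63 (SE 0.476, adjusted p = 8.70e-15 by edgeR), and Wt1 least, with -0.67 (SE 0.0774, adjusted p = 1.62e-08 by edgeR). Gata6 was 0.78 higher on the log2 scale (SE 0.0693, adjusted p = 1.24e-10 by edgeR).

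Adding cisplatin to AU-15330 changed the remaining levels of some genes. Against AU-15330 alone, the combination was higher for 4 of the 9 genes and lower for 1, with backgrounds of 22.2% and 19.5%. Msln rose by 0.65 on the log2 scale (SE 0.0908, adjusted p = 2.58e-06 by edgeR), and its combination libraries, at 161 to 223 CPM, lay above all AU-15330 libraries. Krt19 rose by 1.11 (SE 0.284, adjusted p = 0.00281 by edgeR), from a median of 5.72 to 11.5 CPM, still far under its DMSO level. The libraries of the 2 groups overlapped for Krt19, and its call was lost within replicates 1 to 3, at 1.13 (adjusted p = 0.0939 by edgeR). Gata6 fell by 0.66 (SE 0.0691, adjusted p = 3.30e-08 by edgeR), from 338 ± 29.4 to 214 ± 13.4 CPM (SD, n = 6), without overlap. The calls of Wt1, with a log2 change of 0.23 (adjusted p = 0.0196 by edgeR), and of Krt18, with 0.26 (adjusted p = 0.0268 by edgeR), were weak. That of Wt1 was lost without replicate 1, 2, 3 or 6 (log2 changes 0.17 to 0.22) and that of Krt18 without replicate 4, 5 or 6 (0.20 to 0.26). Thus 2 or 3 of the 9 genes were higher whichever replicate was left out, beside 2360 to 2575 of all tested genes. The call of Wt1 was also lost within replicates 4 to 6, at 0.08 (adjusted p = 0.340 by edgeR). That of Krt18 was lost within replicates 1 to 3, at 0.12 (adjusted p = 0.599 by edgeR). Upk3b, Lrrn4, Krt7 and Krt8 did not pass, with log2 changes of 1.35, 0.54, 1.16 and -0.03, and Krt7 rested on 10 and 4 counts.

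Whether the effect of cisplatin differed with AU-15330 present was tested by the interaction term of the fit. It passed for 5 of the 9 genes, 2 of them higher and 3 lower, with backgrounds of 17.9% higher and 15.8% lower (2313 and 2048 genes, or 1791 and 2506 with library totals unscaled). Cisplatin raised Krt8 by 0.70 without AU-15330 and changed it by -0.03 with it, an interaction of -0.73 (SE 0.131, adjusted p = 0.000125 by edgeR). Gata6 had an interaction of -0.44 (SE 0.0975, adjusted p = 0.000986 by edgeR), its cisplatin effect being -0.22 without and -0.66 with AU-15330. Msln and Krt19 had positive interactions of 0.51 (SE 0.127, adjusted p = 0.00314 by edgeR) and 1.45 (SE 0.378, adjusted p = 0.00432 by edgeR). Lrrn4 had an interaction of -1.67 (SE 0.523, adjusted p = 0.0155 by edgeR), which was lost without replicate 1, at -1.35 (adjusted p = 0.0812 by edgeR), and within both replicates 1 to 3, at -2.28 (adjusted p = 0.0577 by edgeR), and replicates 4 to 6, at -1.08 (adjusted p = 0.202 by edgeR). Within replicates 1 to 3 the interactions of Msln, at 0.42, Krt19, at 1.36, and Gata6, at -0.52, did not pass either. Upk3b, at -0.77 (SE 0.750), and Krt7, at -0.73 (SE 1.44), did not pass and had wide errors. Wt1, at 0.01 (SE 0.109), and Krt18, at 0.04 (SE 0.130), did not pass with narrow errors.

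**Figure D3:**
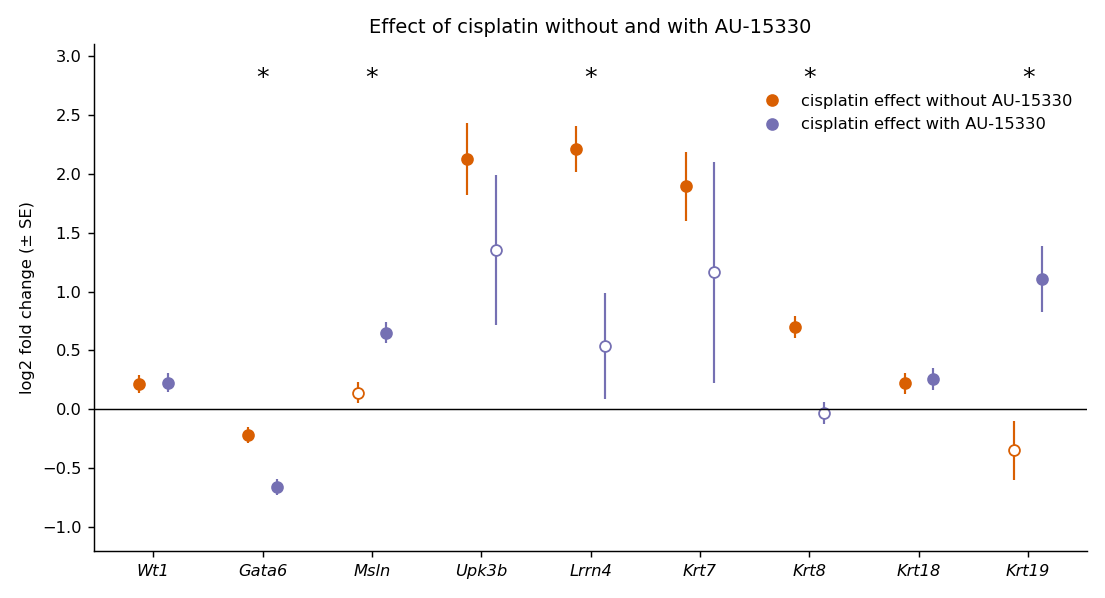
Log2 fold change given by cisplatin, without AU-15330 (cisplatin against DMSO) and with it (combination against AU-15330), for each of the 9 genes with bars of 1 SE on either side. Filled points passed the edgeR threshold, and stars mark the 5 genes whose interaction term passed it.

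The order of the treatments was not the same for every gene. For Upk3b, Lrrn4 and Krt7 the order was cisplatin, DMSO, then the combination and AU-15330, and no difference between the last 2 passed the edgeR test over all libraries (that of Upk3b did with DESeq2, at a log2 change of 1.34 and an adjusted p of 0.0196, and with edgeR within replicates 4 to 6, at 1.60 and 0.0296). For Krt8 the order was cisplatin, DMSO, then AU-15330 and the combination at 243 and 238 CPM, a difference that did not pass. For Wt1 and Krt18 it was cisplatin, DMSO, combination and AU-15330, with overlapping libraries between cisplatin and DMSO and between the combination and AU-15330. For Msln and Krt19 the difference between cisplatin and DMSO did not pass, and the combination was above AU-15330, with overlapping libraries for Krt19 but not for Msln. For Gata6 AU-15330 was highest, followed by DMSO, the combination and cisplatin, and the differences of the combination from DMSO and from cisplatin did not pass.

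The unequal losses changed the make-up of the keratin pool. As a share of the 4 keratins per kb of exon, Krt19 had a median of 59.6% in DMSO, 47.6% with cisplatin, 1.62% with AU-15330 and 2.77% in the combination. Krt8 took 11.2%, 18.2%, 59.1% and 52.9% in the same order, and Krt18 took 29.2%, 34.2%, 39.7% and 44.1%. The ratio of type I to type II keratin transcripts per kb had a median of 7.95 in DMSO (range 7.31 to 9.24) and 4.49 with cisplatin (4.43 to 4.95). It was 0.691 with AU-15330 (0.664 to 0.807) and 0.889 in the combination (0.828 to 0.997). Among these 4 keratins, type II transcripts thus exceeded type I transcripts in all 12 AU-15330-containing libraries. In combination replicate 1 they were nearly equal. The total of the 4 keratins had medians of 1457, 1506, 212 and 223 CPM per kb in the order DMSO, cisplatin, AU-15330 and combination. These shares are of RNA, and they are given as a description without a test.

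**Figure D4:**
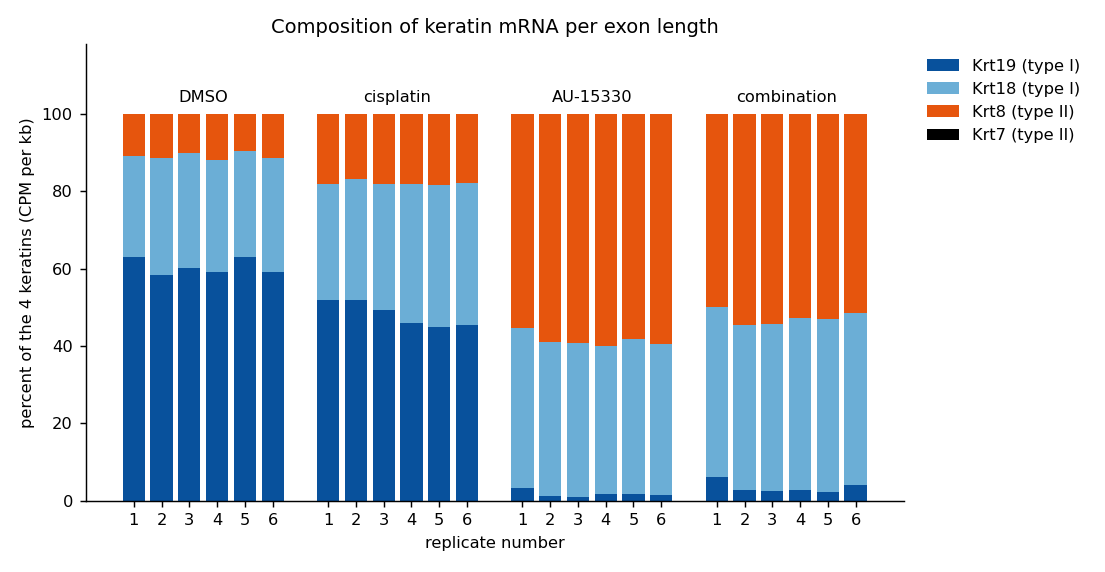
Share of Krt19, Krt18, Krt8 and Krt7 in the sum of the 4 keratins, in percent of CPM per kb of exon, for each library by treatment and replicate number. Krt19 fills most of each DMSO bar, Krt8 most of each AU-15330 and combination bar, and Krt7 is too small to be seen.

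The per-kb order of the 9 genes also changed. With AU-15330 it was Krt8 with a median of 125, Wt1 with 102.6, Krt18 with 84.8, Gata6 with 53.2 and Msln with 38.7 CPM per kb, followed by Krt19 with 3.09 and, below 0.2 CPM per kb, Upk3b, Lrrn4 and Krt7. Neighbouring Krt8 and Wt1 overlapped in their libraries, as did Wt1 and Krt18. In the combination Krt8 had 120.0, Wt1 115, Krt18 97.2, Msln 56.9 and Gata6 33.1 CPM per kb.

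Likeness was described by Pearson's r of log CPM over the 24 libraries, which all carry the differences between the 4 groups, and again after subtracting the group means. Krt18 and Krt19 had a Pearson r of 0.99 over all libraries and 0.70 within groups, and Krt8 and Krt18 had 0.87 and 0.81. Wt1 and Gata6 had -0.64 over all libraries but 0.70 within groups. Among tested genes outside the set, those most like Wt1 were Adam33 (r = 0.96), Shisa8 and Tnip1 (both r = 0.94). Those most like Msln were Sema4a, Csdc2 and Rap1gap (each r = 0.99), and those most like Krt19 were Ak7, Cxcl17 and Tsc22d1 (each r = 0.996). These correlations are a description and were not tested. The divergent antisense transcript Wt1os starts 18 bases from Wt1. It had 31.7 CPM in DMSO, 48.1 with cisplatin, 12.3 with AU-15330 and 11.9 in the combination, with a log2 change of -1.37 for AU-15330 against DMSO (adjusted p = 7.54e-10 by edgeR).

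Other mesothelial and coelomic genes moved in both directions. Of the 7 tested, AU-15330 lowered 2 and raised 3 against DMSO, beside 37.2% lower and 36.2% higher among all tested genes, with a median log2 change of 0.05 against -0.00 over all tested genes. Upk1b, a uroplakin found in mesothelium and urothelium, went from 27.8 ± 7.45 CPM in DMSO to 1.18 ± 0.490 CPM (SD, n = 6), a log2 change of -4.54 (adjusted p = 2.45e-16 by edgeR), and stood at 94.1 CPM with cisplatin. Nkain4 changed by -3.45 (adjusted p = 0.000599 by edgeR) from a mean of 0.310 CPM. Nkain4 was highest with cisplatin (log2 change 1.10 against DMSO), so its passing of the filter rested mostly on that group. Its calls, which are among the counts given here, carry this limit. Tbx18, a T-box factor of the coelomic mesothelium, rose by 0.97 (adjusted p = 8.41e-10 by edgeR). Cisplatin raised 5 of the 7 by edgeR (4 by DESeq2) and lowered 0, also at an unadjusted p under 0.05 and by DESeq2, beside 26% higher and 25.7% lower among all tested genes. The combination raised 3 and lowered 4 against DMSO, beside 36.8% higher and 36.5% lower. The summed level of all 14 genes was 819 to 1132 CPM in DMSO and 982 to 1074 CPM with AU-15330.

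Other keratins and genes of junctions and keratin anchors were counted in the same way. Of 13 further keratins 4 were tested, and AU-15330 lowered 3 of them and raised 0 by edgeR, by DESeq2 and at an unadjusted p under 0.05, beside 37.2% lower and 36.2% higher among all tested genes. Krt15, a type I keratin of basal cells, was at 5.24 ± 3.84 CPM in DMSO (SD, n = 6) and had 2 counts over all AU-15330 libraries, with an adjusted p of 4.39e-10 by edgeR. Krt13 changed by -4.66 (adjusted p = 1.60e-08 by edgeR), and Krt80 changed by -4.0 (adjusted p = 3.26e-11 by edgeR), while with cisplatin alone it rose by 2.07 (adjusted p = 5.02e-08 by edgeR). Of 15 genes of epithelial junctions and keratin anchors 9 were tested. Cisplatin raised 6 of these and lowered 0 by edgeR, by DESeq2 and at an unadjusted p under 0.05, and AU-15330 lowered 4 and raised 2. The shares among all tested genes were 26% higher and 25.7% lower with cisplatin and 36.2% higher and 37.2% lower with AU-15330, where the median log2 change of this list was 0.00. Ppl, which encodes periplakin, a linker of keratin to the cell edge, fell with AU-15330 from 77.9 to 3.82 CPM, a log2 change of -4.35 (adjusted p = 2.47e-14 by edgeR). Cdh1, encoding E-cadherin, fell by 2.29 (adjusted p = 1.67e-05 by edgeR) from a low level of 0.747 CPM. Dsp, encoding desmoplakin, fell by 1.72 (adjusted p = 1.09e-12 by edgeR) from 114 to 34.6 CPM.

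**Figure D5:**
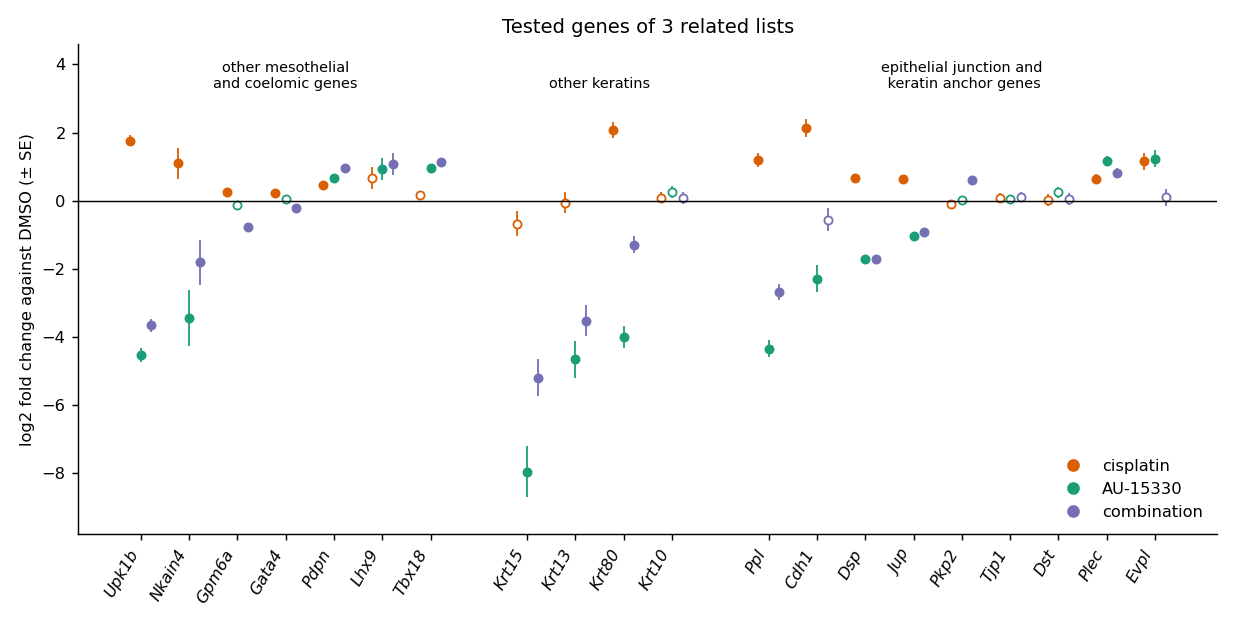
Log2 fold change against DMSO of the tested genes of 3 related lists, with bars of 1 SE on either side, for cisplatin, AU-15330 and the combination. Filled points passed the edgeR threshold of 0.05, and within each list genes stand from the lowest to the highest AU-15330 value.

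Lists of other cell types were examined beside these results, and their part in the result was not tested. Of 9 fibroblast and mesenchymal genes 6 were tested, and AU-15330 raised 3 and lowered 1 against DMSO, beside 36.2% and 37.2% of all tested genes, their summed level being 1853 to 4681 CPM in DMSO and 2605 to 3288 CPM with AU-15330. Col1a1 had a log2 change of -2.38 (adjusted p = 2.44e-09 by edgeR), and Lum, at 0 counts in all DMSO libraries, had 5 to 16 counts in each AU-15330 library. Dcn rose by 0.90 (adjusted p = 5.21e-05 by edgeR). Of 7 Müllerian and oviduct genes only Ovgp1 passed the filter, with a change of -1.42 (adjusted p = 6.62e-07 by edgeR), and the list's sum was at most 7.30 CPM in every library. Of 6 granulosa and theca genes 2 passed, and Star, which encodes the carrier of cholesterol into mitochondria, went from 552 ± 33.1 CPM in DMSO to 2.54 ± 0.486 CPM with AU-15330 (SD, n = 6), a log2 change of -7.77 (adjusted p = 2.24e-20 by edgeR). Of 7 immune genes Cd68 alone passed and rose by 1.56 (adjusted p = 3.16e-05 by edgeR), and the list's sum was 6.46 to 19 CPM in DMSO and 16.9 to 53.1 CPM with AU-15330. Of 5 endothelial genes Pecam1 alone passed and fell by 2.95 (adjusted p = 9.57e-13 by edgeR), the sum being 2.87 to 4.28 CPM in DMSO and 0.261 to 0.763 CPM with AU-15330.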

How the data were processed

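Poly(A)-selected RNA from 24 libraries of ID8 Trp53-/- cells had been prepared with a directional kit and sequenced in 2 lanes per library with single-end reads. The deposited values are raw counts per gene, made by the authors with STAR 2.7.1a on mm10 per the submitters' processing notes, which also name DESeq2 1.36.0. The counting step, its annotation and its use of strand are not given in the sources used here. All 48 columns were matched to a sample by name (0 were left over), and both lanes of a library were summed. The chi-square per degree of freedom between lanes was 1.36 to 1.46, against 2.30 to 122 between replicates of a group.

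Group differences were estimated in R 4.3.3 with edgeR 4.0.16 (filterByExpr, TMM, glmQLFit and glmQLFTest, 4 group means, 20 residual degrees of freedom) over 12941 genes, with Benjamini-Hochberg adjustment. The SE of a log2 change was its size divided by the square root of F. CPM used TMM library sizes, and CPM per kb used the exon union of GENCODE vM21. The depth was 17592588 to 25260009 counts per library. In simulated counts for AU-15330 against DMSO over 12941 genes, 85 of 100 genes with a log2 change of 1 and 98 of 100 with a log2 change of 2 were recovered. Alternatives were DESeq2 1.42.0, other scalings and filters, a fold threshold, a replicate block and subsets of the replicates.

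All 10 members are named, as are the 3 largest AU-15330 calls of each further list and the 3 genes most like the highest member of each class. Genes at 0, Epcam, Ptprc and Wt1os were named after their values were seen. The members and lists were chosen with earlier results of these data known. RefSeq promoters matched 5 members, of which 4 are printed, and Wt1, Msln and Krt19 had no entry.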

Additional observations from a re-analysis of the deposited data

Results flagged for a closer look

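In 3 of 36 groups of 6 libraries a single library stood apart by Dixon's test, against 1.8 expected at 1 in 20, and all 3 were replicate 1. In AU-15330 replicate 1, Lrrn4 had 0.450 CPM against at most 0.191 CPM in the others (a gap of 0.705 of the group's range). Krt19 had 14.4 CPM there against at most 6.60 CPM in the others (0.760). In DMSO replicate 1, Krt8 had 456 CPM against at most 350.3 CPM in the others (0.633).

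The effect of cisplatin differed with and without AU-15330 by the edgeR interaction term for 5 genes. On the log2 scale this difference was 0.51 for Msln and 1.45 for Krt19. It was -0.73 for Krt8, -0.44 for Gata6 and -1.67 for Lrrn4. That of Lrrn4 did not pass without replicate 1, the number of the library with the high Lrrn4 value (-1.35, adjusted p = 0.0812).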

How the results depend on the processing

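Of 945 member values under the alternatives, 872 kept their direction and their side of the threshold, 54 lost and 5 gained a call, and 14 changed sign, none of them a called value. The sign changes were -0.0162, -0.0466 and -0.0141 for the Wt1 interaction with DESeq2 size factors, without TMM and with DESeq2, and -0.0828 within replicates 4 to 6. Leaving out 1 replicate gave -0.0471 to 0.0558 for Wt1 and -0.0539 to 0.125 for Krt18, whose interaction was also -0.0290 without TMM and -0.0335 within replicates 1 to 3. The Krt7 interaction was 0.23 within replicates 1 to 3, and Krt7 in the combination against AU-15330 was -0.61 within replicates 4 to 6. Gata6 was 0.0482 in the combination against DMSO without TMM, and -0.0037 against cisplatin within replicates 1 to 3.

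With a fold change above 1.5 required, cisplatin against DMSO gave 3 higher and 0 lower members and 1789 genes, 1422 higher and 367 lower. AU-15330 against DMSO gave 0 higher and 6 lower members and 4657 genes, 2177 higher and 2480 lower. The combination against DMSO gave 6 lower members and 4683 genes, 2289 higher and 2394 lower. Against cisplatin the combination gave 7 lower members and 3803 genes, 1459 higher and 2344 lower. The combination against AU-15330 gave 0 higher and 0 lower members and 842 genes, 721 higher and 121 lower. AU-15330 against cisplatin gave 1 higher and 7 lower members and 4723 genes, 1888 higher and 2835 lower. The interaction gave 0 higher and 0 lower members and 926 genes, 342 higher and 584 lower. The counts without this threshold were 6689, 9497, 9486, 8813, 5394, 9456 and 4361 genes in the order of these comparisons. Within replicates 1 to 3, cisplatin against DMSO gave 0 lower members and 4361 genes, the combination against AU-15330 gave 2 higher members and 2817 genes, and the interaction gave 0 higher and 1 lower members and 1701 genes. Within replicates 4 to 6, cisplatin against DMSO gave 2 lower members, Gata6 and Krt19, beside 3442 of 12985 genes, and the combination against cisplatin gave 1 higher, Gata6, beside 4374 of 12985. Without TMM these were 0 lower, beside 2529 of 12941 genes, and 1 higher, beside 5111 of 12941, and the median log2 change of all tested genes shifted to 0.126 for AU-15330 against DMSO, 0.139 for the combination against DMSO and 0.104 for the combination against cisplatin. With no filter the combination against AU-15330 gave 2 higher members, beside 2534 of 20428 genes, and leaving out 1 replicate gave 2 to 3, beside 2360 to 2575 genes. With DESeq2, Upk3b also passed there (log2 change 1.34, adjusted p = 0.0196). The subsets hold fewer libraries, and the cause of the other shifts was not tested.

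The replicate numbers were not taken as pairs, since the labels give them no shared source and only 23 of 36 same-numbered pairs had a correlation of deviations over 0.1. The mean correlation was 0.145 for the same number and -0.0269 for different numbers, and 10 of 24 libraries were closest to a library of their own number, a hint from the data of some shared structure. With the replicate block, 7354 genes passed in cisplatin against DMSO, against 6689 without it, with more calls in the other comparisons too, and 6 members were higher, and the block changed no call of the 9 genes. For Krt7 and Lrrn4 with AU-15330, depth limits the size of the fall.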
